A study of Homo sapiens with 6 samples.

Results

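The genes described here encode the subunits of Polycomb repressive complex 1 (PRC1) and the enzymes that remove its mark, 35 genes of 58884 in the deposited table. They were matched to the table by gene symbol, from a list drawn up with earlier results of these data known. They comprise 11 subunits of canonical PRC1, the 2 RING E3 ligases common to all forms and 15 subunits of variant PRC1, USP7 included. The rest are the chromatin reader L3MBTL1 and 6 genes for H2A deubiquitinases and their ASXL cofactors, called deubiquitinase genes below. RNA was profiled in 2 groups of 3 libraries of HL-60, a RAS-mutated cell line from acute myeloid leukemia. The control group, libraries 3, 4 and 5, carried a lentiviral scrambled shRNA, and the EZH2 shRNA group, libraries 1, 3 and 4, carried a lentiviral shRNA against EZH2, the methyltransferase subunit of PRC2. Cells of both groups had been selected with puromycin, which was removed 2 days before the experiment, and were held for 24 hours in medium with 0.05% serum. The labels speak of a stable knockdown, while the series design speaks of knock-out lines. Separate cultures or transductions are not described for the libraries of a group, and the spread that the p-values measure may therefore be technical.

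PRC1 attaches a single ubiquitin to histone H2A through RING1 or RNF2, which pair with one of several PCGF proteins. In canonical PRC1 the PCGF partner is PCGF2 or BMI1, and a CBX protein reads the H3 lysine 27 methylation that PRC2 deposits, while PHC proteins polymerize and compact chromatin. Variant PRC1 holds RYBP or YAF2 in place of CBX, needs no such methylation to bind, and is sorted by its PCGF subunit into several complexes, one of which reaches unmethylated CG-rich DNA through KDM2B. BAP1 with an ASXL protein, USP16 and MYSM1 remove the ubiquitin from H2A.

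EZH2 mRNA checked the labels. It stood at 148, 151 and 150.3 CPM (counts divided by the TMM-scaled library size, as a rate) in the controls and at 79.5, 83.2 and 77.3 CPM in EZH2 shRNA libraries 1, 3 and 4, so that 53.5% of the control level remained (log2 fold change -0.90, SE 0.04, edgeR adjusted p = 3.22e-11). Total counts lay between 39717343 and 85074624 per library. Of the promyelocyte markers, MPO averaged 9795 CPM, CTSG 174 CPM and SPI1 157 CPM in the controls, whereas ELANE was near 0 (0.035 CPM). Of the 7 promyelocyte markers tested 2 were higher and 2 lower with EZH2 shRNA. Monocyte, lymphocyte, erythroid and stromal or epithelial marker lists each summed to at most 3.78 CPM in any library. Within this low range each sum was higher in every EZH2 shRNA library than in any control. From the highest control to the lowest EZH2 shRNA library, the sums went from 0.448 to 0.964 CPM (monocyte) and 0.754 to 0.844 CPM (lymphocyte). They likewise went from 2.08 to 3.19 CPM (erythroid) and from 1.70 to 2.91 CPM (stromal or epithelial). CSF1R, KLF1 and KRT8 of these lists were called higher (edgeR adjusted p = 1.14e-05, 0.00012 and 3.72e-05) and 0 genes lower. Eosinophil markers also moved with the group, with 7 of 9 measurable and all 7 higher. Their summed level went from between 160 and 163 CPM in the controls to between 382 and 408 CPM. SIGLEC8 and CCR3, which mark mature eosinophils, averaged 0.057 and 0.039 CPM with EZH2 shRNA. Of 20 proliferation markers 17 fell and 0 rose, summing to between 7788 and 8032 CPM in the controls and between 6285 and 6579 CPM with EZH2 shRNA. The part of these shifts in the results below was not tested. In bulk RNA, fewer cells of a type and less RNA per cell cannot be told apart.

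Of the 35 genes, 32 passed the expression filter (edgeR filterByExpr), and at an adjusted p under 0.05 the test called 10 of them higher and 8 lower in EZH2 shRNA cells. Over all 16859 genes tested 23.8% were called higher and 22.9% lower, 46.7% in all, against 31.2%, 25% and 56.2% of these 32. The share of genes that moved was thus not far from that of the whole transcriptome. The changes were small: 2 of the 32 genes, PHC1 and PCGF2, reached 1.5-fold, compared with 17% of all genes. In 21 of the 32 genes all EZH2 shRNA libraries lay on one side of all controls, against 54.9% of all genes. The largest rise was that of PHC1 (log2 fold change 0.89) and the largest fall that of ASXL2 (-0.58). The changes split the paralog families, with PHC1 and PHC2 higher but PHC3 lower, CBX2 and CBX8 higher but CBX7 lower, and PCGF2, PCGF5 and BMI1 higher but PCGF1 lower.

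**Figure D1:**
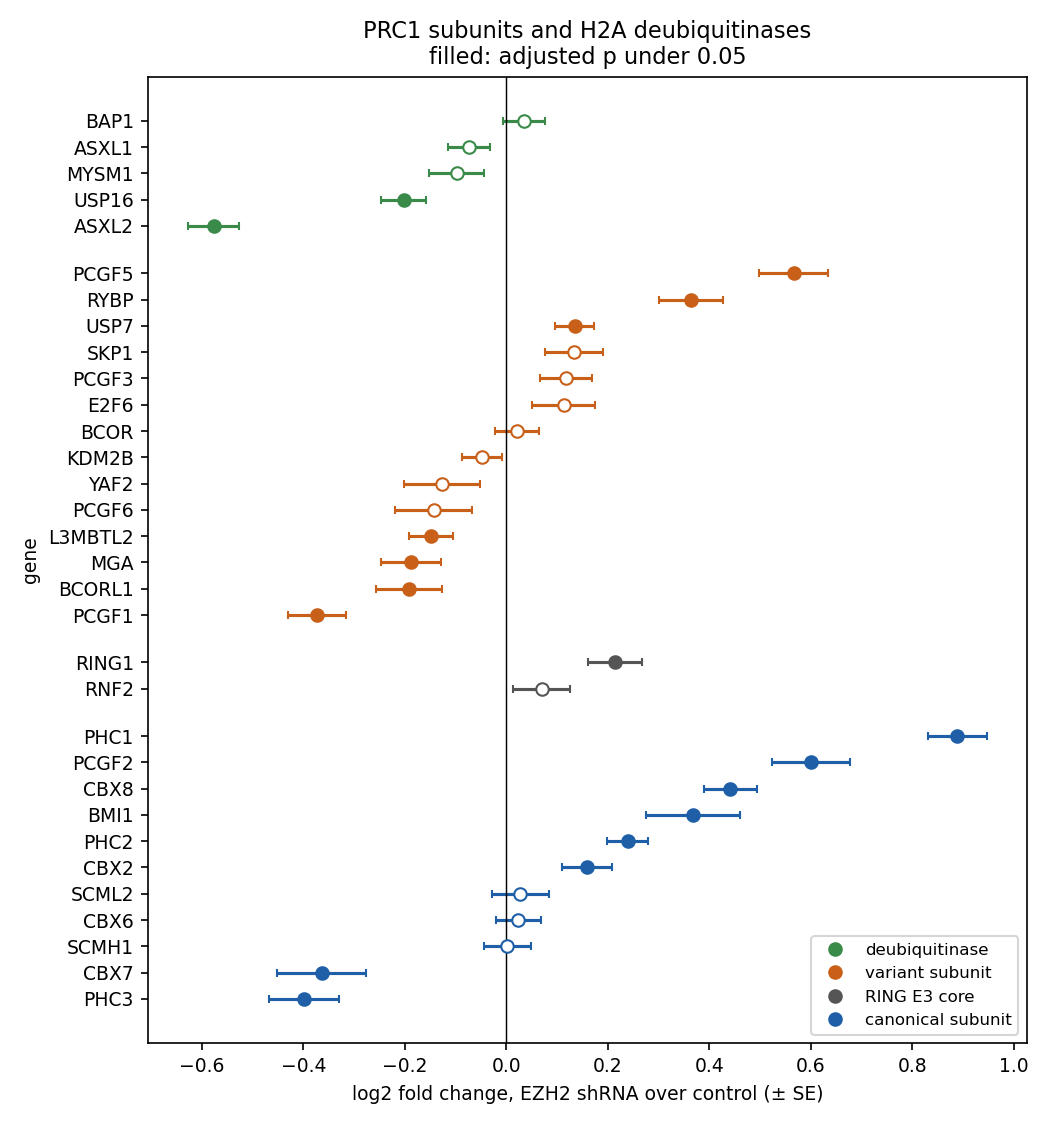
Log2 fold change (EZH2 shRNA over control, x axis, with SE bars) of the 32 genes that passed the expression filter, grouped by role and coloured by it, with filled points for an adjusted p under 0.05. Canonical subunits span -0.40 to 0.89, variant subunits -0.37 to 0.57, and no gene of the deubiquitinase group has a filled point right of 0. USP7, itself a deubiquitinase, is drawn among the variant subunits, with a filled point at 0.14.

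Sequence upstream of a RefSeq start is shown for genes at the ends of this range whose windows hold no exon annotated in GENCODE v44. They are PHC1, PCGF2 and PCGF5, the 3 largest rises, and ASXL2 and PCGF1, 2 of the 3 largest falls. The window of PHC3, the other large fall, overlaps an annotated exon. Each line gives the 250 bases before the most upstream RefSeq start (GRCh38.p14), 5′ to 3′ on the gene's strand, with CG dinucleotides in capitals because KDM2B, a member of this group, binds unmethylated CG. The windows are chr12:8913593-8913842 (plus strand), chr17:38746629-38746878 (minus), chr10:91162743-91162992 (plus), chr2:74507696-74507945 (minus) and chr2:25878488-25878737 (minus).
PHC1: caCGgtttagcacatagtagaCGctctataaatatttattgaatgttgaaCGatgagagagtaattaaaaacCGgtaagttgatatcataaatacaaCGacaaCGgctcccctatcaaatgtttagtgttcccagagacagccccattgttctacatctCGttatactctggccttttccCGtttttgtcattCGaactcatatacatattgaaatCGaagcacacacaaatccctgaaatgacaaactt
PCGF2: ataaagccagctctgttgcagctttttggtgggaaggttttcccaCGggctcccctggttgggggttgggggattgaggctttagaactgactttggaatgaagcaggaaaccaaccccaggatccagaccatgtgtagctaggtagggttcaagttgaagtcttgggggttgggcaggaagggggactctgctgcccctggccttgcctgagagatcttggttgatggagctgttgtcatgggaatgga
PCGF5: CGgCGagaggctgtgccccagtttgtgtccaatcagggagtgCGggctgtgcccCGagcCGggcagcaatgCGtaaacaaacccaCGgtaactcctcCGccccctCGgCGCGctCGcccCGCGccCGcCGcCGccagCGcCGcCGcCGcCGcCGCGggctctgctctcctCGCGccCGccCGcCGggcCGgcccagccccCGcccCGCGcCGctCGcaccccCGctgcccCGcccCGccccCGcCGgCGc
PCGF1: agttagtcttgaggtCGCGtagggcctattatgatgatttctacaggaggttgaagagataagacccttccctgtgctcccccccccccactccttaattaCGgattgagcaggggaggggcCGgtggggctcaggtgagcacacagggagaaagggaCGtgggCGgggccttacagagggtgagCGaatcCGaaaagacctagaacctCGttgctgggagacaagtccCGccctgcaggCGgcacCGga
ASXL2: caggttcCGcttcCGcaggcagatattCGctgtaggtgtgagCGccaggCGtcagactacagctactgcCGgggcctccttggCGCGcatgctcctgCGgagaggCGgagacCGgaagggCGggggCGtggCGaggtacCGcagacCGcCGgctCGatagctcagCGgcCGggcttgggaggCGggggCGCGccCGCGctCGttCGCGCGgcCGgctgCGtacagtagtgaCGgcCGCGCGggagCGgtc
The PCGF2 window held 1 CG dinucleotide, PHC1 10 and PCGF5 41, while PCGF1 had 12 and ASXL2 36. The PCGF2 window lies inside the deposited span of that gene (chr17:38733898-38749817, minus strand), downstream of its 5′ end. It thus need not be the promoter of the RNA counted. The 3′ end of the ASXL2 window also reaches into the deposited span of that gene (chr2:25733753-25878516, minus strand). RefSeq windows were found for 31 of the 35 genes, with a median of 29 CG dinucleotides, against 10 over the 27305 genes with a window. That background was not filtered by gene type or expression, while the genes described here are all protein-coding and mostly expressed. The contrast therefore need not be particular to this group, and the motif shares below are set against the same background. Among genes called higher the count ran from 1 to 43 (8 genes) and among genes called lower from 12 to 41 (8 genes). CBX2 and CBX8, also called higher, had no window. The windows at the ends of the higher range, of PCGF2 (1) and USP7 (43), both lie inside the deposited gene spans. The E-box CACGTG, the letters that MAX and MGA dimers recognize (its own reverse complement), was present in 6 of the 31 windows, against 6.46% of all windows. The E2F letters GCGGGAA, on either strand, were in 3 of 31, against 5.56% of all windows. Such matches describe the letters of the window and are not evidence of binding.

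The mRNAs of the catalytic subunits changed little. RING1 (ENSG00000204227; GRCh38 chr6:33208500-33212722, plus strand) was at 43.8, 46.9 and 40.7 CPM in the controls (libraries 3, 4 and 5, in that order throughout) against 50.5, 51.1 and 51.0 CPM with EZH2 shRNA (libraries 1, 3 and 4). Every EZH2 shRNA library lay above every control, and the gene rose by 0.21 on the log2 scale (SE 0.05, edgeR adjusted p = 0.00286). RNF2 (chr1:185045526-185102603, plus strand), the paralog usually regarded as the more active ligase, was at 27.2, 27.4 and 25.7 CPM against 28.0, 27.0 and 29.1 CPM. The groups overlapped (log2 fold change 0.07, SE 0.06, edgeR adjusted p = 0.338). On the per-length FPKM scale RING1 made up 77.9% ± 0.711 of the 2 ligases' summed level in the controls and 79.6% ± 0.621 with EZH2 shRNA (SD, n = 3 each; exact two-sided permutation p = 0.1, the smallest that 3 against 3 can give).

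The mRNAs of both PCGF proteins of canonical PRC1 rose. PCGF2 (chr17:38733898-38749817, minus strand) was at 9.64, 9.65 and 9.78 CPM in the controls and at 14.9, 13.6 and 15.5 CPM in EZH2 shRNA libraries 1, 3 and 4. Its lowest EZH2 shRNA library was far above its highest control (log2 fold change 0.60, SE 0.08, edgeR adjusted p = 6.38e-06). CISD3 shares 48.5% of the exon bases of PCGF2 on the opposite strand (GENCODE v44), was expressed at 25.5 CPM over the 6 libraries and rose by 0.23 itself. The strand setting of the authors' counting is not given in the sources used here, so part of the PCGF2 count may belong to CISD3. BMI1 (chr10:22321099-22331484, plus strand), known as a repressor of the CDKN2A locus in blood stem cells, was at 8.66, 8.25 and 8.46 CPM against 11.4, 11.9 and 9.56 CPM. All EZH2 shRNA libraries were above the controls, library 4 by the least (0.37, SE 0.09, edgeR adjusted p = 0.00351). COMMD3-BMI1, a read-through gene on the same strand that covers 22.8% of the exon bases of BMI1, was listed at 0 counts in all 6 libraries, so reads from shared exons may be missing from the BMI1 level.

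The mRNAs of the PCGF proteins of variant PRC1 went separate ways. PCGF5 (chr10:91163012-91284337, plus strand) rose from 15.1, 16.8 and 15.5 CPM to 25.0, 23.1 and 22.4 CPM (0.57, SE 0.07, edgeR adjusted p = 3.11e-06). PCGF1 (chr2:74505043-74507695, minus strand), the PCGF of the KDM2B and BCOR complex, fell from 28.4, 29.1 and 28.8 CPM to 23.4, 21.9 and 21.5 CPM (-0.37, SE 0.06, edgeR adjusted p = 3.93e-05). In both genes the groups were apart in every library, in opposite directions. PCGF3, which forms a complex closely related to that of PCGF5, averaged 32.1 ± 0.565 CPM and 34.8 ± 1.25 CPM (SD, n = 3 each), a log2 fold change of 0.12 that did not pass (edgeR adjusted p = 0.0718). PCGF6, the subunit of the complex with MGA and L3MBTL2, averaged 21.8 ± 2.32 and 19.7 ± 0.983 CPM with overlapping groups (-0.14, edgeR adjusted p = 0.133).

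Per length, PCGF1 was the most abundant of the 6 PCGF mRNAs. It made up 47.6% ± 1.08 of their summed FPKM in the controls and 38.1% ± 0.886 with EZH2 shRNA, ahead of PCGF6 at 20.9% ± 1.87 and 19.6% ± 0.728 (SD, n = 3 each). PCGF3 followed at 12.5% and 14%, then PCGF2 at 7.97% and 12.5%. PCGF5 and BMI1 were the rarest in the controls, at 5.49% ± 0.291 and 5.55% ± 0.174, which did not differ beyond their spread, and reached 8.44% and 7.44%. The order of the other 4 members was the same in both groups, although the library ranges of PCGF3 and PCGF2 overlapped with EZH2 shRNA. The share of PCGF1, PCGF2, PCGF3, PCGF5 and BMI1 separated the groups without overlap (exact two-sided permutation p = 0.1 each, the smallest possible), and that of PCGF6 did not (exact permutation p = 0.3). The summed FPKM of the family was 34.6 ± 0.714 in the controls and 33.2 ± 0.843 with EZH2 shRNA (exact permutation p = 0.2). The shares of BMI1 and PCGF2 carry the limits of shared exons given above.

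**Figure D2:**
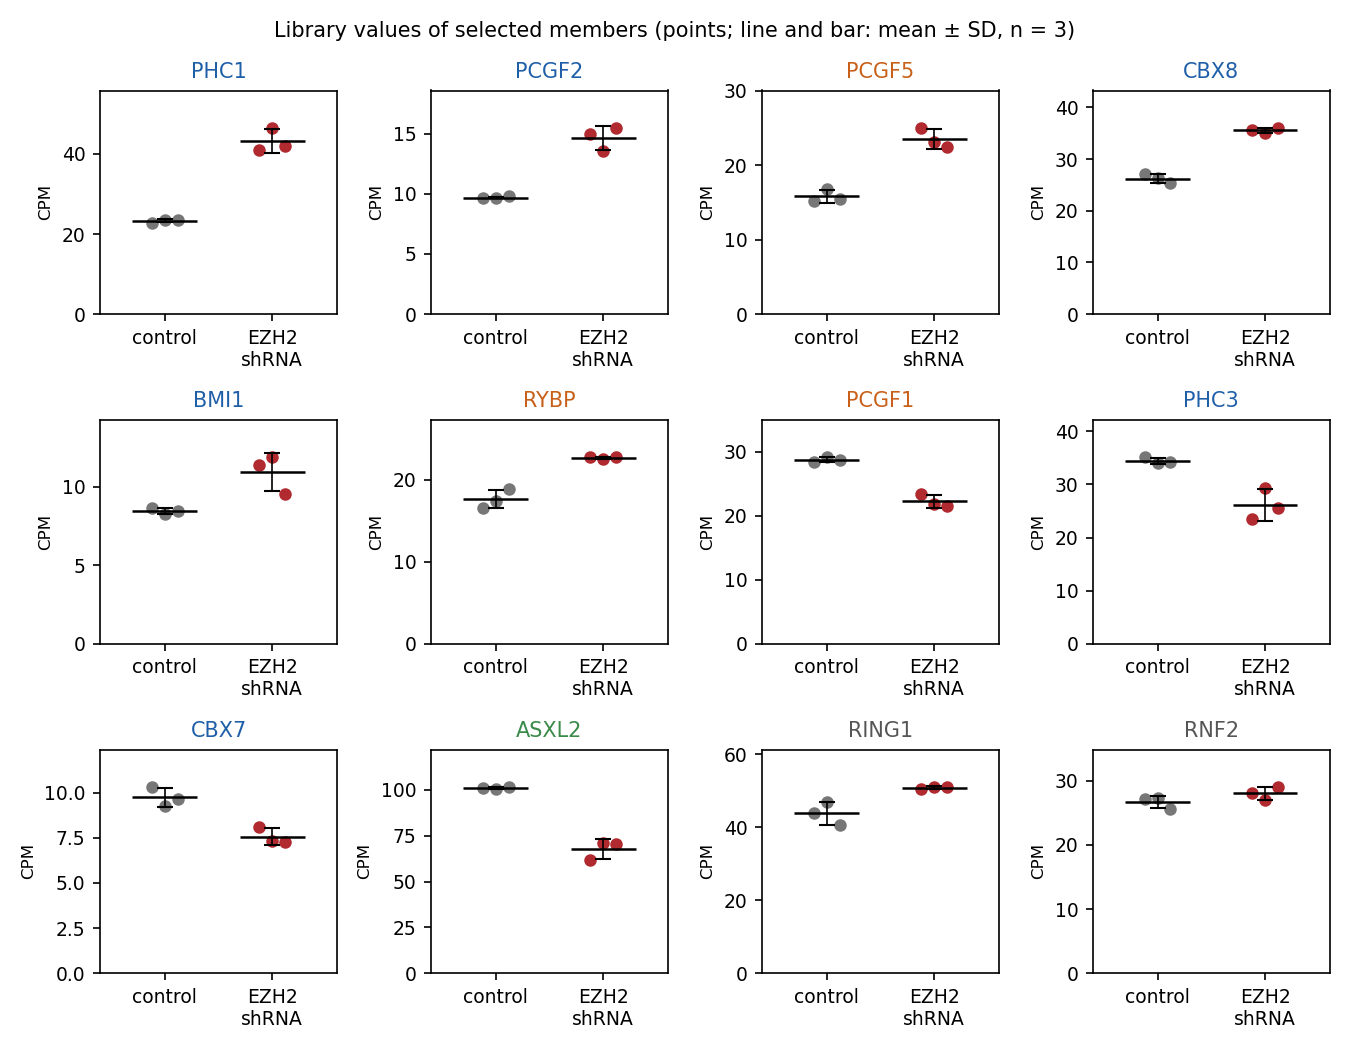
CPM (y axis, from 0) of 12 genes in the 3 control and 3 EZH2 shRNA libraries (points), with mean and SD, and titles coloured by role as in the plot of fold changes. PHC1 rises from about 23.3 to 43.2 CPM on average, ASXL2 falls from 101 to 67.7 CPM, and the 2 groups of RNF2 overlap.

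Of the genes for CBX readers of H3 lysine 27 methylation, CBX8 and CBX2 rose, CBX7 fell and CBX6 did not pass. CBX8 (chr17:79792132-79801683, minus strand) was at 27.1, 26.3 and 25.3 CPM in the controls and at 35.6, 35.1 and 36.0 CPM in EZH2 shRNA libraries 1, 3 and 4 (0.44, SE 0.05, edgeR adjusted p = 2.57e-06). CBX7 (chr22:39120167-39152680, minus strand), the CBX protein typical of self-renewing stem cells, was at 10.3, 9.25 and 9.64 CPM against 8.09, 7.33 and 7.28 CPM (-0.36, SE 0.09, edgeR adjusted p = 0.00245). In CBX8 and CBX7 no EZH2 shRNA library reached the range of the controls. CBX2 (chr17:79778148-79787983, plus strand), a neighbour of CBX8, averaged 72.5 ± 4.59 and 80.9 ± 2.77 CPM (0.16, edgeR adjusted p = 0.0134), and CBX6 144 ± 2.11 and 146 ± 8.48 CPM (0.02, edgeR adjusted p = 0.695). The CBX2 call was lost without control library 4 (edgeR adjusted p = 0.1), without EZH2 library 3 (0.062), on the deposited FPKM scale (0.0679 and 0.066 by limma) and when regional medians were removed, as given below. Per length, CBX6 led these 4 genes at 46.8% of their summed FPKM in the controls, followed by CBX2 at 33.3% and CBX8 at 16.6%, while CBX7 was at 3.4%. With EZH2 shRNA the share of CBX8 was 20.5% and that of CBX7 2.41%.

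The PHC genes showed the widest split. PHC1 (ENSG00000111752; chr12:8913896-8941467, plus strand), whose promoter window is printed above, went from 22.9, 23.5 and 23.5 CPM to 41.0, 46.5 and 41.9 CPM. It was 1.85-fold higher, and the gap between the groups was many times the spread within them (log2 fold change 0.89, SE 0.06, edgeR adjusted p = 2.49e-09). M6PR, which shares 18% of the exon bases of PHC1 on the opposite strand and averaged 196 CPM, did not pass the test (-0.02, edgeR adjusted p = 0.679). With the strand setting not given, part of the PHC1 count may belong to M6PR, and the PHC shares that follow carry this limit. PHC3 (chr3:170086732-170181749, minus strand) went the other way, from 35.1, 34.1 and 34.1 CPM to 23.5, 29.4 and 25.5 CPM (-0.40, SE 0.07, edgeR adjusted p = 0.000171). PHC2 rose from 89.4 ± 2.59 to 106 ± 1.07 CPM (0.24, edgeR adjusted p = 0.000102) and stayed the main PHC mRNA per length, at 75.5% and 71.2% of the family's summed FPKM. The share of PHC1 was 16% ± 0.573 in the controls and 23.6% ± 0.98 with EZH2 shRNA, and that of PHC3 was 8.55% ± 0.0743 and 5.18% ± 0.457 (SD, n = 3 each; exact two-sided permutation p = 0.1 for each PHC gene). The summed FPKM of the family was 23.8 ± 0.541 and 29.6 ± 0.857. The accessory subunits SCMH1 and SCML2, whose SAM domain can bind that of PHC proteins, did not pass (0.00 and 0.03, edgeR adjusted p = 0.975 and 0.728), with overlapping groups.

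**Figure D3:**
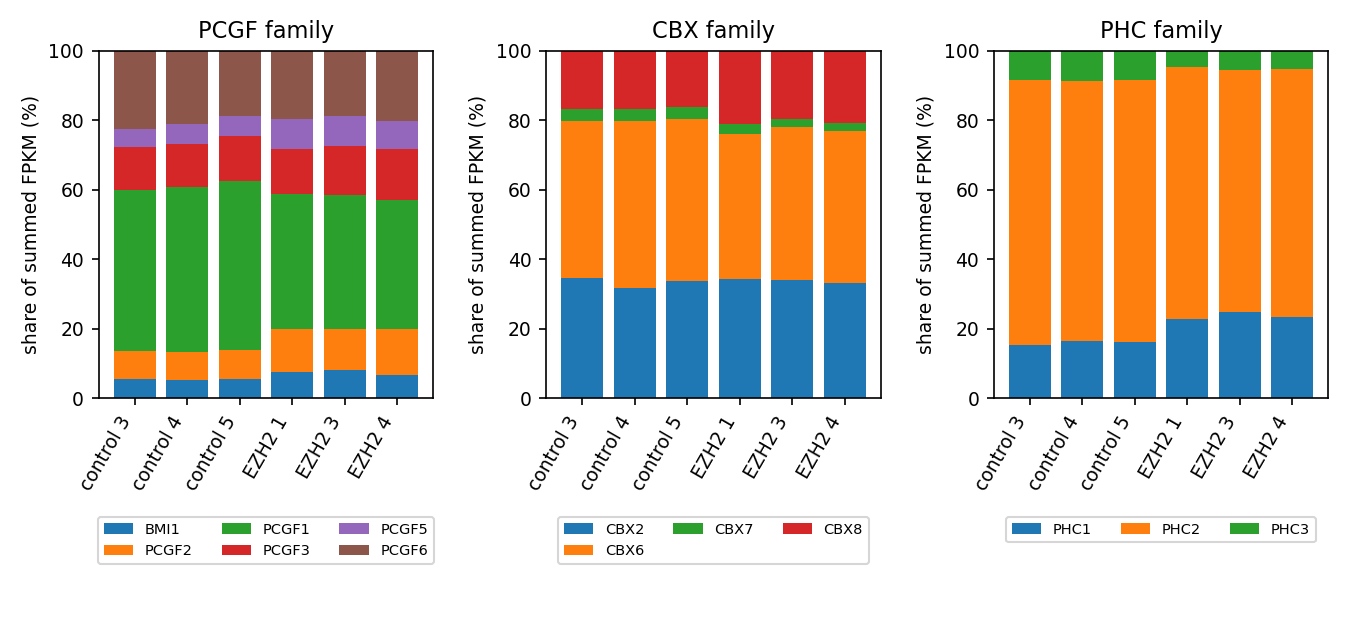
Share of each gene in the summed FPKM of its family (y axis, percent) in each of the 6 libraries, for the 6 PCGF genes, 4 CBX genes and 3 PHC genes. The PHC1 band is wider in the 3 EZH2 shRNA libraries (22.8% to 24.7%) than in the controls (15.3% to 16.4%), and the PCGF1 band narrower (37.1% to 38.8% against 46.5% to 48.7%).

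RYBP (chr3:72371825-72446621, minus strand), the adaptor that takes the place of CBX proteins in variant PRC1, rose from 16.6, 17.4 and 18.8 CPM to 22.7, 22.5 and 22.8 CPM (0.36, SE 0.06, edgeR adjusted p = 0.000157). Its paralog YAF2 averaged 13.6 ± 0.824 and 12.5 ± 0.476 CPM with overlapping groups (-0.13, edgeR adjusted p = 0.181). RYBP thus supplied 66% ± 1.33 of the pair's summed FPKM in the controls and 73.2% ± 0.689 with EZH2 shRNA (SD, n = 3 each; exact two-sided permutation p = 0.1).

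Among the partners of PCGF1, the DNA-binding demethylase KDM2B, the corepressor BCOR and the adaptor SKP1 did not pass (-0.05, 0.02 and 0.13, edgeR adjusted p = 0.352, 0.727 and 0.067). Some reads of KDM2B may belong to RNF34 on the other strand, and reads of SKP1 from exons of AC104109.3, a same-strand gene listed at 0, may be missing. BCORL1, the paralog of BCOR, fell from 28 ± 2.21 to 24.4 ± 1.03 CPM (-0.19, edgeR adjusted p = 0.022). USP7, a deubiquitinase that stabilizes several PRC1 subunits, rose from 135 ± 3.37 to 148 ± 1.77 CPM (0.14, edgeR adjusted p = 0.00804). Of the PCGF6 complex, the MBT-domain protein L3MBTL2 fell from 103 ± 3.66 to 93.4 ± 3.49 CPM (-0.15, edgeR adjusted p = 0.00959) and the MAX-binding scaffold MGA from 111 ± 8.06 to 97.1 ± 6.78 CPM (-0.19, edgeR adjusted p = 0.0194). E2F6, the repressor of the E2F family, averaged 19.5 and 21.1 CPM (0.11, edgeR adjusted p = 0.155). The calls of BCORL1, USP7, L3MBTL2 and MGA were all lost without control library 3 (edgeR adjusted p = 0.113, 0.0517, 0.0527 and 0.0738). BCORL1 and MGA lost theirs also without control library 5 (0.0956 and 0.0851), and BCORL1 and L3MBTL2 without EZH2 library 4 (0.0555 and 0.0529).

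AUTS2, a neuronal partner of PCGF3 and PCGF5, and ASXL3, a brain-enriched ASXL gene, had 0 counts in every control library and in EZH2 library 1. AUTS2 had 2 counts in each of EZH2 libraries 3 and 4, and ASXL3 had 2 counts in library 3. L3MBTL1, a methyl-lysine reader, had 5, 1 and 1 counts in the controls against 6, 3 and 1 counts with EZH2 shRNA. A count of 0 allows up to 3 counts, between 0.0353 and 0.0759 CPM by library (counting error only), so no difference was detectable at this depth for AUTS2 and ASXL3. None of these 3 genes passed the expression filter.

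Of the 5 deubiquitinase genes tested 2 fell and 0 rose, beside 22.9% lower and 23.8% higher over all genes. These 5 include the BAP1 cofactors ASXL1 and ASXL2, and among the enzymes BAP1, USP16 and MYSM1 only USP16 was called. USP7, a deubiquitinase that rose (0.14), is counted with the variant subunits. ASXL2 (ENSG00000143970; chr2:25733753-25878516, minus strand), which activates BAP1, was at 101, 100.4 and 102 CPM in the controls and at 61.6, 70.9 and 70.6 CPM in EZH2 shRNA libraries 1, 3 and 4. It fell to 67.1% of its control level (log2 fold change -0.58, SE 0.05, edgeR adjusted p = 9.52e-08), and the controls were tightly grouped far above all EZH2 shRNA libraries. ASXL1, the paralog often truncated in myeloid neoplasms, averaged 165 ± 4.56 and 157 ± 5.93 CPM (-0.07, edgeR adjusted p = 0.156), and BAP1 106 ± 3.4 and 108 ± 3.62 CPM (0.03, edgeR adjusted p = 0.533). The share of ASXL1 in the summed ASXL FPKM was 60.9% ± 0.532 in the controls and 68.9% ± 0.889 with EZH2 shRNA (exact two-sided permutation p = 0.1), while that sum went from 19.8 to 16.6 FPKM. USP16, which removes H2A ubiquitin before mitosis, fell from 78.8 ± 1.94 to 68.5 ± 2.98 CPM (-0.20, edgeR adjusted p = 0.00119). MYSM1, a deubiquitinase needed in blood stem cells, averaged 77 ± 3.8 and 72 ± 5.37 CPM with overlapping groups (-0.10, edgeR adjusted p = 0.154).

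Canonical and variant subunits were then set side by side. Of the 11 canonical genes 6 were called higher, 2 lower and 3 did not pass, with a median log2 fold change of 0.16. This median is the value of CBX2, the middle gene, whose call was lost in several alternatives, as given above. Of the 14 variant genes tested 3 were called higher, 4 lower and 7 did not pass, with a median of -0.01. Over all genes tested 23.8% were called higher and 22.9% lower, with a median of 0.01. BMI1, PCGF2 and PHC1 among the canonical and SKP1 and KDM2B among the variant genes share exons with other genes. Without these, 3 canonical genes were called higher and the difference of the medians went from 0.172 to 0.0785. Not all exon-sharing genes were left out. PCGF3, L3MBTL2 and CBX7, which share 22%, 21.4% and 17.9% of exon bases with an opposite-strand gene, were kept. Without control library 3, 1 variant gene was called lower in place of 4. Taken per library, the canonical median minus the variant median, each relative to the control mean, was 0.04, -0.0046 and -0.03 in the controls, against 0.16, 0.24 and 0.12 with EZH2 shRNA. The genes of a class are not replicates of a condition, and no test was made of this difference of 0.17. The difference changed when the position of the genes was allowed for. Genes of chromosome 17 had a median log2 fold change of 0.15 and those of chromosome 2 a median of -0.25, and 3 of the 6 canonical rises, PCGF2, CBX2 and CBX8, are on chromosome 17. With chromosome medians removed the difference between the classes was 0.05, and with the median of the 40 nearest tested genes removed it was -0.05.

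Single genes changed with that adjustment too. The 40 nearest genes of CBX2 had a median of 0.28 and those of CBX8 0.26, and with it removed CBX2 stood at -0.12 (edgeR adjusted p = 0.0623), whereas CBX8 remained called at 0.19 and PCGF2 at 0.37. PCGF1, E2F6 and ASXL2 lie on chromosome 2. With the chromosome median removed PCGF1 was at -0.12 (edgeR adjusted p = 0.086), E2F6 was called higher at 0.36 (0.000167), and ASXL2 remained called at -0.33. With the window median removed PCGF1 was still called. PCGF5 lies among genes with a median of -0.24, and its log2 fold change relative to them was 0.81. With window medians removed BCOR was called higher (0.17, edgeR adjusted p = 0.00338) and SCMH1 lower (-0.14, 0.019), while USP7 (0.09, 0.0592) and MGA (-0.11, 0.169) lost their calls.

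**Figure D4:**
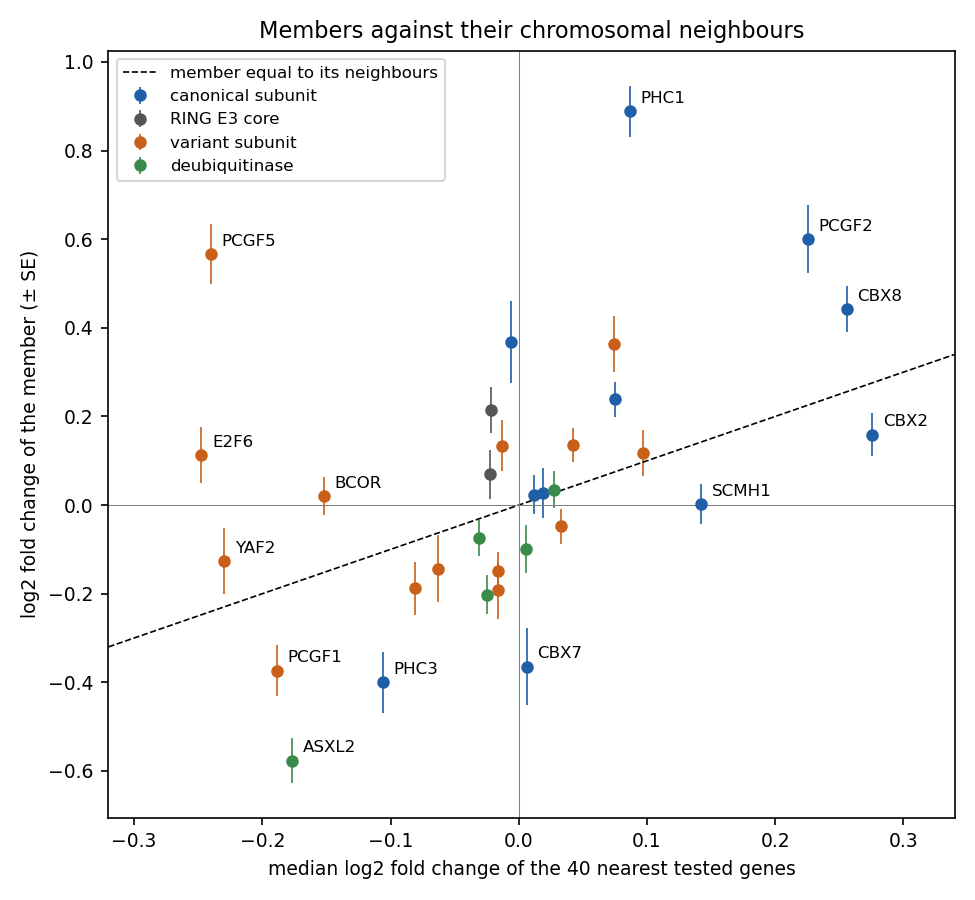
Log2 fold change of each of the 32 genes (y axis, with SE) against the median of its 40 nearest tested genes (x axis), with a dashed line where the 2 are equal. PHC1 (0.89 against 0.09) and PCGF5 (0.57 against -0.24) lie far above the line, ASXL2 (-0.58 against -0.18) lies below it, and so does CBX2 (0.16 against 0.28).

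Genes that work with these complexes were mixed. Of 14 measured partners of PRC1 3 rose and 3 fell, with a median log2 fold change of 0.02. TFDP1, the dimer partner of E2F6, rose by 0.28 and the casein kinase subunit gene CSNK2A1 by 0.19, while the MBT-domain gene SFMBT2 was at -0.60 and the deacetylase gene HDAC1 at -0.17 (edgeR adjusted p between 3.5e-07 and 0.00171). Of 7 partners of BAP1, 1 rose, FOXK2 at 0.22, and 2 fell, KDM1B at -0.29 and FOXK1 at -0.12 (edgeR adjusted p = 0.000121, 0.000574 and 0.0364). Of 10 other H2A ubiquitin genes 2 rose and 3 fell, among them RSF1, a reader of ubiquitinated H2A, at -0.60, the deubiquitinase USP22 at 0.31, the ubiquitin-conjugating enzyme gene UBE2D3 at -0.12 and the deubiquitinase USP21 at 0.14. Over all genes the shares were 23.8% higher and 22.9% lower.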

How the data were processed

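Polyadenylated RNA of 6 HL-60 libraries was sequenced with a stranded kit as single reads of 50 bases, per the labels' protocols. The authors deposited raw counts per gene and FPKM values, 1 column per library. GRCh38 (hg38), DESeq2 1.24.0, R 3.6.1, Picard 2.18.24 and STAR 2.5.2b stand in the submitters' processing notes, without roles. Counter, annotation release and strand setting: not given in the sources used here. The deposited FPKM were the counts divided by 1 value per gene and by DESeq2 size factors for 29060 of 29060 genes (relative tolerance 0.001), so they are no second measurement.

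Groups were compared with edgeR 4.0.16 (R 4.3.3; quasi-likelihood F test, TMM, robust, filterByExpr), with no covariate, and p-values were adjusted by Benjamini-Hochberg over 16859 genes at 0.05. Alternatives used DESeq2 1.42.0, limma 3.58.1 on log2 of FPKM plus 1 or 0.1, other scalings and filters, left-out libraries, a block on title numbers, and removed chromosome or window medians. Levels between genes are compared in FPKM only. The scripts were tested on simulated counts. Within groups, library pairs differed beyond sampling noise (chi-square per degree of freedom 3.18 to 17.3). The genes, roles and lists were chosen with earlier results of these data known. All 35 genes are named, with values per library for RING1, RNF2, BMI1, members called with a log2 fold change of at least 0.3 and those under the filter, then up to 4 partner genes per list with the smallest p and up to 3 markers per list. USP3, of a partner list, is not analysed here. Promoters are from RefSeq (GRCh38.p14).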

Additional observations from a re-analysis of the deposited data

How the results depend on the processing

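Of the 18 called genes, 12 kept their call in every alternative in which they were tested: BMI1, PCGF2, CBX7, CBX8, PHC1, PHC2, PHC3, RING1, PCGF5, RYBP, ASXL2 and USP16. The number of all genes called lay between 6799 and 8122 (main 7866). Genes called lower numbered 8, and 5 to 9 when single libraries were left out. Variant genes called lower numbered 4, 2 on either FPKM scale, and 1 to 4 without single libraries. Variant genes called higher numbered 3, and 5 with upper-quartile scaling, with a filter of 1 CPM in 3 libraries, with chromosome medians removed and with window medians removed. The canonical minus variant median of 0.172 was 0.0499 with chromosome medians removed and -0.0453 with window medians removed, where CBX2 (-0.12), SCMH1 (-0.14) and YAF2 (0.10, without a call) also changed sign. An alternative chosen after seeing the data left out BMI1, SKP1, PCGF2, PHC1 and KDM2B, which share exons with other genes. Further genes that share exons, such as PCGF3, L3MBTL2 and CBX7, were kept. In this alternative 3 canonical genes were called higher, in place of 6, and the median difference was 0.0785. The 3 canonical genes left out, BMI1, PCGF2 and PHC1, had all been called higher. With a replicate block on the title numbers 7721 genes were called, 11 and 7 of these genes higher and lower. Numbers 5 and 1 each occur in a single group, so the contrast in this fit rested on libraries 3 and 4 of each group. PCGF3 (adjusted p = 0.0307) and PCGF6 (0.00578) gained a call and BCORL1 (0.133) and MGA (0.126) lost it. On log2 of FPKM plus 1 these 2 genes were at 0.0679 and 0.075 (limma adjusted p). The numbers 3 and 4 are shared by the groups, but deviations of same-numbered libraries correlated by 0.031 and 0.0045, so they were not taken as pairs. Depth limits AUTS2, ASXL3 and L3MBTL1, all at 6 counts or fewer per library.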
